A study of Homo sapiens with 6 samples.

Results

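The 9 genes described here encode the MHC class I antigen presentation machinery: the heavy chains HLA-B, HLA-C, HLA-E and HLA-F, the light chain B2M, the peptide loading components TAP1, TAP2 and TAPBP, and the transcriptional activator NLRC5. They were found on the arrays as the catalogue probes whose RefSeq accession maps to one of these symbols. This gave 15 probes for 9 genes, among 34134 catalogue probes, of which 25728 matched 19721 gene symbols. The array annotation thus gave every gene at least 1 probe, and TAPBP had 3.

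The cell line REH was derived from a B-cell precursor leukemia. It holds the ETV6/RUNX1 fusion gene and has lost its other ETV6 allele. Expression was measured on 6 one-color arrays, 3 of REH cells with a non-targeting shRNA (control) and 3 of REH cells with an shRNA against the ETV6/RUNX1 fusion (knockdown). Per the study's methods, both shRNAs were designed against ETV6 and only the knockdown one hit the fusion transcript, the other serving as the non-targeting control, although a figure legend of the study calls the control a scramble. Both were delivered by lentivirus with a GFP marker, and GFP-positive cells were sorted on the third day after transduction. All arrays thus share the cell line, the virus and the sort, and the comparison covers a single line and a single hairpin for each group.

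A class I molecule is a heavy chain paired with B2M that carries a short peptide to the cell surface, where CD8 T cells read it and NK cells sense its loss. Peptides are cut mainly by the proteasome, pumped into the endoplasmic reticulum by the TAP1 and TAP2 transporter, and fitted into the groove with the help of tapasin, the product of TAPBP. Transcription of several of these genes rests on a shared promoter module that recruits NLRC5, and on interferon-response and NF-κB elements that raise it during inflammation.

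To show what these promoters share, stretches before the annotated start are printed for the 7 of 9 genes that matched a promoter entry of RefSeq (build GRCh38.p14). They run 5′ to 3′ on the strand of the gene, and for TAP1, which has more than 1 entry, the most upstream start was used. Capitals mark matches, on either strand, to the interferon-response element written as GAAANNGAAA or GAANNGAAA, to the X2-like letters TGACG and to the Y-type letters CCAAT. Those 2 spacings of the interferon-response element overlap in TAP2. The HLA-B stretch is chr6:31357224-31357364 on the minus strand, HLA-C is chr6:31272137-31272277 on the minus strand, and HLA-F is chr6:29723249-29723389 on the plus strand. B2M is chr15:44711362-44711482 on the plus strand. The remaining stretches are chr6:32853744-32853844 for TAP1, chr6:32838755-32838814 for TAP2 and chr6:33314082-33314143 for TAPBP, all on the minus strand.
HLA-B: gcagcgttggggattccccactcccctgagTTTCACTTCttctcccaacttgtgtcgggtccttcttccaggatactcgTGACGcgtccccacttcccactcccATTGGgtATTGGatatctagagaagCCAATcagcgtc
HLA-C: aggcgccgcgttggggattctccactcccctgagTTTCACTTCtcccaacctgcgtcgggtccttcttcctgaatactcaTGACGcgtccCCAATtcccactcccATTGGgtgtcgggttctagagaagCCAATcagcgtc
HLA-F: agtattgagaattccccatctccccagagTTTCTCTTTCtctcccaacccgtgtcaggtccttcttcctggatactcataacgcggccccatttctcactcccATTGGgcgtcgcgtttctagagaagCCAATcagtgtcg
B2M: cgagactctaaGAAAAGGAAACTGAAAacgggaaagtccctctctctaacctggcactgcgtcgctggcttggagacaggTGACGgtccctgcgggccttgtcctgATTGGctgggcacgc
TAP1: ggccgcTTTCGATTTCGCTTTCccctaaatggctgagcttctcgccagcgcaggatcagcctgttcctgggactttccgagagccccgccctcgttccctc
TAP2: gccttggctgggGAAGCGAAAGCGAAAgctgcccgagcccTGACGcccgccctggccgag
TAPBP: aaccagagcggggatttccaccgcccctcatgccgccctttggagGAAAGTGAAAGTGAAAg

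In the printed stretches of the heavy chain promoters, the interferon-response match lies upstream of the Y-type matches. HLA-B and HLA-C have a TGACG between them, and HLA-F has none. B2M has the order of HLA-B and HLA-C in its own promoter. B2M, TAP1, TAP2 and TAPBP carry interferon-response matches that run into each other. In the 250 bases before the start, an interferon-response match of either spacing was present in 7 of 8 promoter windows of these genes, against 9.09% of 34788 distinct windows of all genes. CCAAT was present in 5 of the 8 (32.0% of all windows), TGACG in 4 (21.2%) and the NF-κB-like letters GGGNNNNNCC in 7 (54.4%). The RUNX letters TGTGGT and TGCGGT were in none of the 8, against 16.3% of all windows with either. A match describes letters only and is no evidence that a factor bound there.

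**Figure D1:**
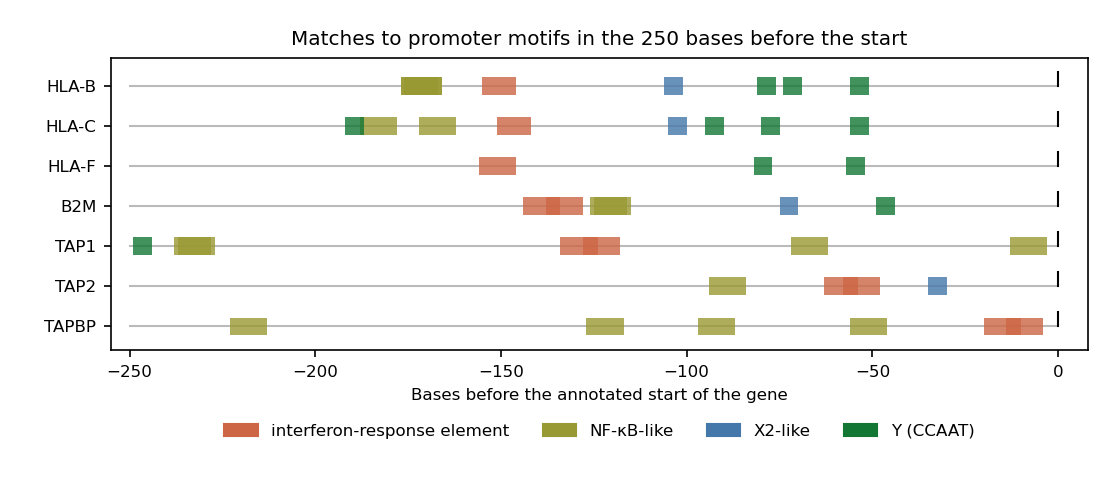
Matches to 4 kinds of promoter letters (coloured boxes) by distance in bases from the annotated start (black tick at 0) in the 250 bases before it, 1 row a gene. All 7 genes hold an interferon-response match, which lies nearest the start in TAPBP and farthest from it in HLA-F.

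First, the data were checked. Median raw intensity was 66 to 75 per array, against 42.3 to 48.0 for the negative control spots, and the scanner software flagged 45.8% to 51.0% of probes as well above background. The retained ETV6 probe (A_33_P3356325) was at 7.92, 8.05 and 8.37 on the control arrays and at 7.50, 7.46 and 7.29 on the knockdown arrays, on the normalized log2 scale used for all levels below. Its groups did not overlap, with a difference of -0.70 ± 0.14 (SE, n = 3 per group), but its adjusted p of 0.0511 missed the threshold of 0.05. With spike-in scaling the difference was -0.42 (adjusted p = 0.291), and a fit that included the slide row gave -0.96 (adjusted p = 0.0516). Where this probe lies relative to the breakpoint of the fusion was not determined, and no array had the other ETV6 probe well above background. Of 12 B-cell precursor markers fixed for the check, 11 were well above background on all 6 arrays, CD79A and PAX5 among them. The summed linear level of the B-cell precursor markers was 276300 to 291400 on the controls and 328800 to 367700 on the knockdown arrays. None of their 16 retained probes was called, against 1.75% of all retained probes. With the replicate block, 4 of the 16 were called, against 3.79% of all retained probes. All 4 were higher in the knockdown, and 2 of them were probes of IGLL1, a surrogate light chain gene. The sum over NK cell markers (2 retained probes) was 228 to 251 on the controls and 311 to 427 on the knockdown arrays, and that over monocyte or granulocyte markers (3 retained probes) was 411 to 468 and 373 to 395, with no probe of either called. CD3E, CD3G, GNLY, KLRD1, PRF1, S100A8, S100A9, HBB, EPCAM and CDH1, markers of T, NK, myeloid, erythroid and epithelial cells, were well above background on no array. The part of these marker shifts in the results below was not tested. Arrays of control 1 and control 2 lay in one row of the slide and the other 4 arrays in the next, so slide row and group are partly confounded.

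All 15 class I and loading probes were retained after the filter on dim probes, and all were well above background on all 6 arrays. None was called at an adjusted p under 0.05 with limma, whereas 1.75% of the 27441 retained probes were. In bulk RNA, fewer cells expressing a gene and less of its RNA per cell cannot be told apart. At an unadjusted p under 0.05, 1 of the 15 probes passed, against 12.5% of all retained probes. With the replicate number as a block, none was called (3.79% of all), and 2 had an unadjusted p under 0.05 (18.8% of all). With the probes of each gene averaged, none of the 9 genes was called, against 1.73% of all names.

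The differences were small on both sides of 0. A total of 8 probes had a higher and 7 a lower mean in the knockdown, with a median difference of 0.004 on the log2 scale against -0.001 over all retained probes. Their median absolute difference was 0.08, against 0.12 over all retained probes. The spread within groups was also small, with a median SD of 0.11 (0.03 to 0.20) against 0.15 over all retained probes. Groups of arrays did not overlap for 3 of 15 probes (20%), against 18.9% of all retained probes, so this count was near the background. Of the 9 genes averaged over their probes, 2 did not overlap, B2M and NLRC5, against 19% of all names.

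**Figure D2:**
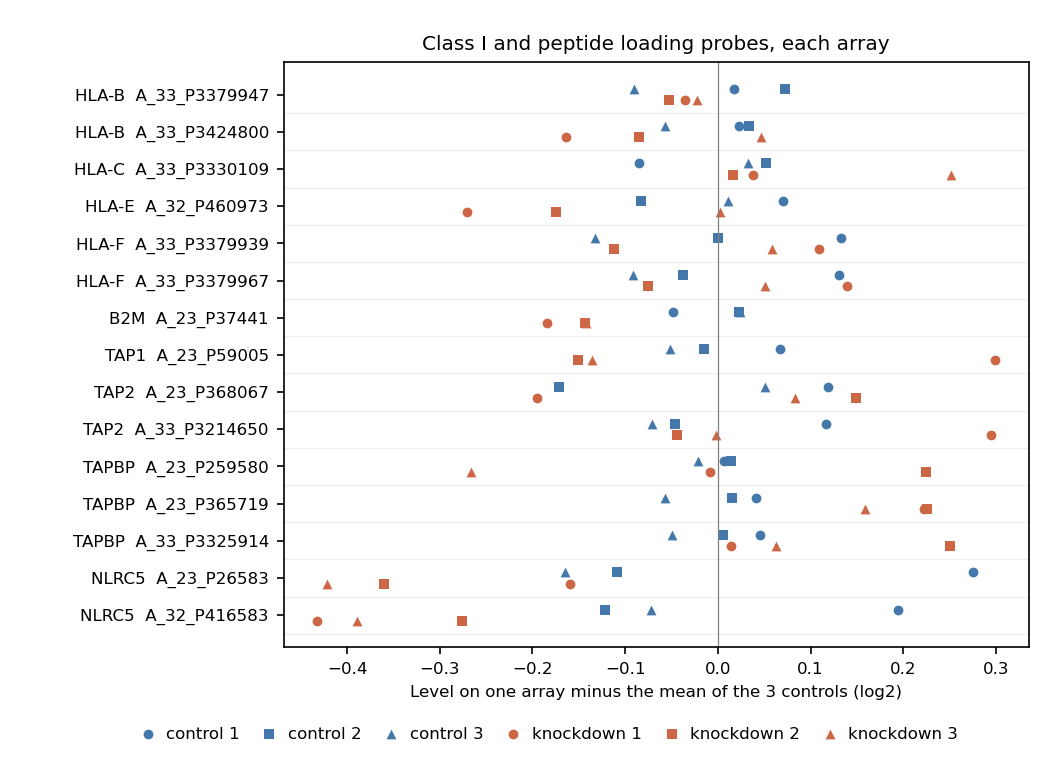
Level on each array minus the mean of the 3 controls (log2, x axis) for the 15 probes; color gives the group and symbol shape the replicate number. Control and knockdown arrays are apart for 1 probe each of B2M, TAPBP and NLRC5 and overlap for the other 12.

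Because a missed threshold does not show that levels were alike, intervals were computed. On the normalized scale, the 95% interval of the difference lay within 2-fold in either direction for all 15 probes. The lowest bound was -0.64, or 0.641-fold, and the highest was 0.41, or 1.33-fold. This scale understates the change of dim probes such as TAP2 A_23_P368067 (raw intensity 74.5 to 90.5), so its interval may be too narrow. With spike-in scaling TAPBP A_23_P365719 was at 0.52, beside a shift of 0.38 in all probes. With the standard errors of limma, a difference of 0.46 to 0.74 on the log2 scale would have been needed for a call (median 0.56). These errors draw the spread of each probe toward that of all retained probes. Smaller changes of these genes were thus not detectable with 3 arrays per group.

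**Figure D3:**
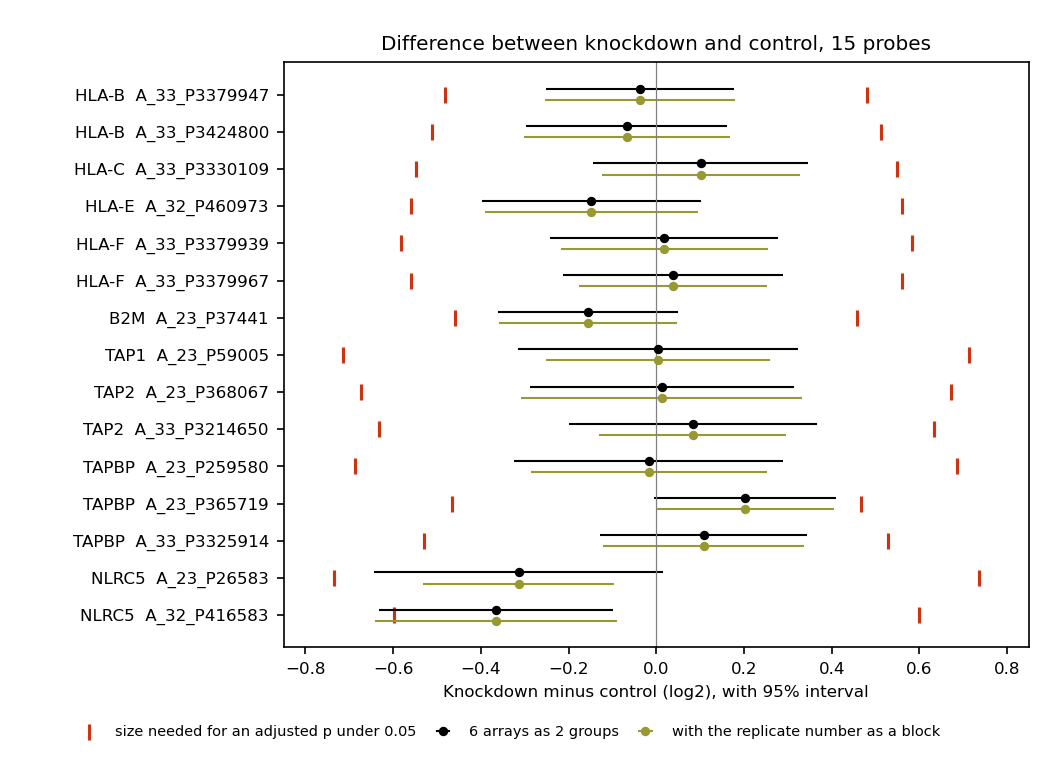
Difference between knockdown and control (log2, x axis) with its 95% interval for 15 probes, without (black) and with (olive) the replicate number as a block; red ticks mark the size needed for an adjusted p under 0.05 without the block. Every point lies inside its red ticks, and the largest difference is -0.37 for NLRC5.

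Next, the genes were read by role, starting with the activator. NLRC5 is the class I transactivator, a NOD-like receptor protein that enters the nucleus and acts through the shared promoter module. Both of its probes match the same RefSeq transcript. The probe A_32_P416583 gave 10.77, 10.45 and 10.50 on the controls and 10.14, 10.30 and 10.18 on the knockdown arrays. Every knockdown array was below every control array, and the highest value was that of control 1. The difference was -0.37 ± 0.12 (SE, n = 3 per group; 95% interval -0.63 to -0.10), with an adjusted p of 0.226 by limma and an exact two-sided permutation p of 0.1, the smallest that 3 against 3 arrays allow.

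The second NLRC5 probe, A_23_P26583, gave 10.82, 10.44 and 10.38 on the controls and 10.39, 10.19 and 10.12 on the knockdown arrays. Here knockdown 1 lay just above control 3, so the groups overlapped, although each knockdown array was below the control of its own number. Its difference was -0.31 ± 0.14 (SE; 95% interval -0.64 to 0.01; adjusted p = 0.423). Both probes thus gave values of the same sign and like size, and neither was called. Their mean gave -0.34 ± 0.12 (SE; adjusted p = 0.288). Without control 1 the probes were at -0.27 and -0.18, and with the slide row as a term at -0.29 and -0.15. NLRC5 had the largest difference of the 9 genes in size, and the spread between 3 arrays did not separate it from 0 after adjustment.

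HLA-B encodes a classical heavy chain. Its probe A_33_P3379947 gave 16.48, 16.54 and 16.38 on the controls and 16.43, 16.41 and 16.44 on the knockdown arrays, a difference of -0.04 ± 0.09 (SE). The knockdown arrays all fell between the lowest and the highest control. The other HLA-B probe differed by -0.07 ± 0.10. HLA-C, the other classical chain among the 9, gave 16.67, 16.81 and 16.79 on the controls and 16.80, 16.78 and 17.01 on the knockdown arrays. Knockdown 3 stood above the rest, and the difference of 0.10 ± 0.11 (SE; adjusted p = 0.749) was within its error.

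HLA-E is a non-classical heavy chain that presents leader peptides of other class I chains to NK cell receptors. It gave 15.22, 15.06 and 15.16 on the controls and 14.88, 14.97 and 15.15 on the knockdown arrays. Each knockdown array was below the control of its number, yet knockdown 3 lay above control 2, and the difference of -0.15 ± 0.11 (SE; adjusted p = 0.639) did not pass. HLA-F, a non-classical chain found largely inside the cell, had probes for separate transcript accessions. Their differences were 0.02 ± 0.11 and 0.04 ± 0.11, and their groups overlapped. HLA heavy chains are near-identical over long stretches and the probe sequences were not used here, so signal of one HLA transcript on the probe of another cannot be told apart.

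B2M encodes the light chain shared by all these heavy chains, and its single probe was spotted 5 times on each array. It gave 16.52, 16.59 and 16.59 on the controls and 16.39, 16.43 and 16.43 on the knockdown arrays. All knockdown arrays were below all control arrays, with SDs of 0.041 and 0.024, while the SD between the spots of one array was 0.073 to 0.147. The difference was -0.16 ± 0.09 (SE; 95% interval -0.36 to 0.05), that is 0.897-fold, with an adjusted p of 0.530 by limma. Raw intensity of the class I probes reached 133115, and no spot was at the saturation value of 777355.

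TAP1 and TAP2 form the transporter that moves peptides into the endoplasmic reticulum. TAP1 gave 14.12, 14.03 and 13.997 on the controls and 14.35, 13.90 and 13.91 on the knockdown arrays. Knockdown 1 was the highest of all arrays and the other knockdown arrays were the lowest, and the means differed by 0.00 ± 0.14 (SE; 95% interval -0.32 to 0.32; adjusted p = 0.995). Without knockdown 1 the value was -0.14, also not called. The SD of 0.256 on the knockdown arrays was the widest within a group among the 15 probes. TAP2 had a bright probe, A_33_P3214650, that differed by 0.08 ± 0.12, and a dim one, A_23_P368067, for another transcript that differed by 0.01 ± 0.13. On the bright probe, too, knockdown 1 was highest, at 12.20 against 11.84 to 12.02 on the controls and 11.86 and 11.90 on the other knockdown arrays.

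TAPBP encodes tapasin, which bridges TAP and the heavy chain and edits the peptide cargo. Probe A_23_P365719 gave 12.76, 12.73 and 12.66 on the controls and 12.94, 12.94 and 12.88 on the knockdown arrays. All knockdown arrays were above all control arrays. The difference was 0.20 ± 0.09 (SE; 95% interval -0.01 to 0.41), or 1.15-fold, with an adjusted p of 0.414 by limma. The other TAPBP probes, both for a further transcript accession, gave 0.11 ± 0.10 and -0.02 ± 0.13, and their groups overlapped. The probes of TAPBP thus did not give one direction, and their mean differed by 0.10 ± 0.10 (SE; adjusted p = 0.738).

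**Figure D4:**
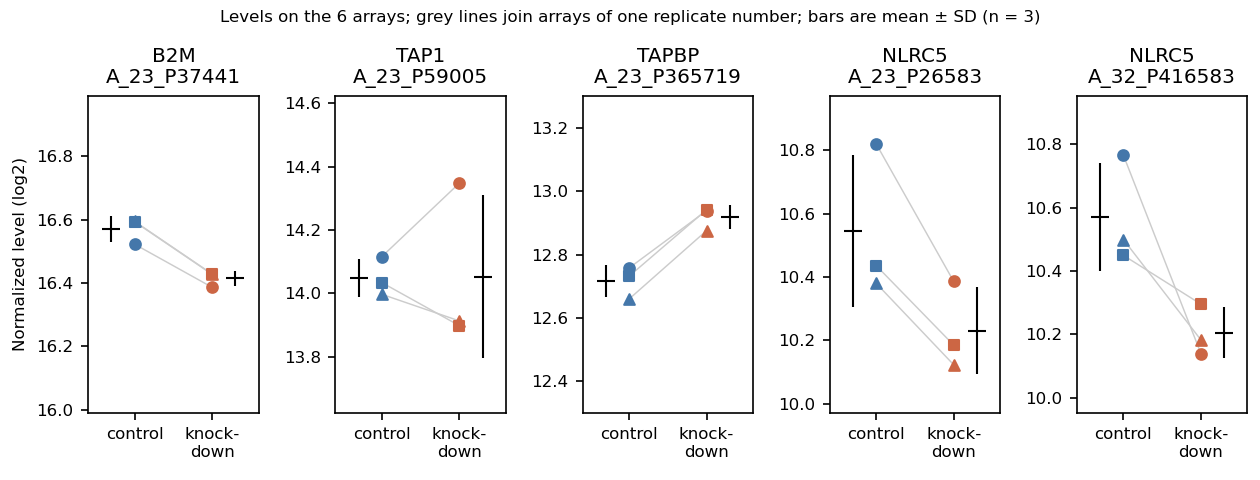
Normalized levels (log2) on the 6 arrays for 5 probes of B2M, TAP1, TAPBP and NLRC5, each panel spanning 1 log2 unit; symbol shape gives the replicate number, grey lines join arrays of one number and bars are mean ± SD (n = 3). B2M and NLRC5 A_32_P416583 are lower on all 3 knockdown arrays, TAPBP is higher on all 3, and TAP1 rests on knockdown 1.

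Scaling the arrays to the spike-in controls instead moved the median of all probes by 0.38. Relative to that shift, the values of NLRC5 were -0.34 and -0.38, that of B2M was -0.17 and that of TAPBP A_23_P365719 was 0.14, while the unshifted values were 0.04 and -0.0025 for NLRC5, 0.22 for B2M and 0.52 for that TAPBP probe (adjusted p = 0.195). Whether total RNA per cell differed cannot be read from either scaling.

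The rest of the class I pathway was then read from lists of genes for each step. Among other heavy chains and class I-like molecules, 16 of 18 genes had a probe and 18 probes were retained, with a median difference of 0.01. A single probe was called, that of PROCR, the endothelial protein C receptor, whose fold resembles class I but which presents no peptide to T cells. PROCR fell from 7.62 to 6.18, a difference of -1.43 ± 0.16 (SE, n = 3 per group; adjusted p = 0.00515), and was lower in 3 of 3 pairs. With the slide row as a term it was at -1.18 and the call was lost (adjusted p = 0.0655). Of all retained probes, 1.28% were called lower. The highest value was that of ULBP3, a ligand of the NK receptor NKG2D, at 0.38 ± 0.11 (adjusted p = 0.188). Its probe was dim, at 5.62 on the controls and 6.01 on the knockdown arrays, and well above background on only 4 arrays. With spike-in scaling its value was 1.41, beside a shift of 0.38 in all probes.

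Among loading chaperones and glycan quality control genes, none of 20 retained probes was called by limma (median 0.03; 4 of the 20 had an unadjusted p under 0.05, against 12.5% of all retained probes). PRKCSH, the regulatory subunit of glucosidase II, was the highest at 0.42 ± 0.12 (adjusted p = 0.160), and UGGT1, which reglucosylates misfolded glycoproteins, the lowest at -0.37 ± 0.12 (adjusted p = 0.224). CALR and PDIA3, the calreticulin and ERp57 of the loading complex, were named after their values were seen. CALR differed by -0.03 and PDIA3 by 0.00 and 0.04.

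Peptide supply genes, that is the immunoproteasome, its activators and the trimming peptidases, had 21 retained probes with a median of 0.02 and no call (1 of 21 with an unadjusted p under 0.05, against 12.5%). PSME3, a subunit of a nuclear proteasome activator, was the highest at 0.33 ± 0.11, and PSME4, another activator, had the lowest at -0.23 ± 0.16 and -0.01 on its other probe. The 3 catalytic subunits of the constitutive proteasome had a median of -0.13 and no call (0 of 3 with an unadjusted p under 0.05, against 12.5%), between -0.15 for PSMB5 and -0.02 for PSMB6.

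Transcription factors of class I promoters had 26 retained probes with a median of 0.07 and no call (2 of 26 with an unadjusted p under 0.05, against 12.5% of all retained probes). CTCF, a chromatin insulator protein, was the highest at 0.41 ± 0.26, with knockdown 1 at 11.97 against 11.06 and 11.05 on the other knockdown arrays and 10.69 to 11.18 on the controls. The lowest was IRF8, a B-cell and myeloid interferon regulatory factor, at -0.23 ± 0.21, with knockdown 1 at 7.51 above every control and the other knockdown arrays at 6.80 and 6.68. Interferon receptor and JAK-STAT genes had 16 retained probes with a median of 0.11 and no call (1 of 16 with an unadjusted p under 0.05). IFNAR2, a chain of the type I interferon receptor, was at 0.36 ± 0.16, with 0.11 and 0.25 on its other probes, and IFNGR1, a chain of the interferon gamma receptor, at -0.27 ± 0.10. Among genes of class I turnover and trafficking, 22 retained probes had a median of 0.06 and no call (2 of 22 with an unadjusted p under 0.05). Their ends were B4GALT1, a galactosyltransferase, at 0.38 ± 0.10 and SPPL2A, an intramembrane protease, at -0.05 ± 0.12.

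**Figure D5:**
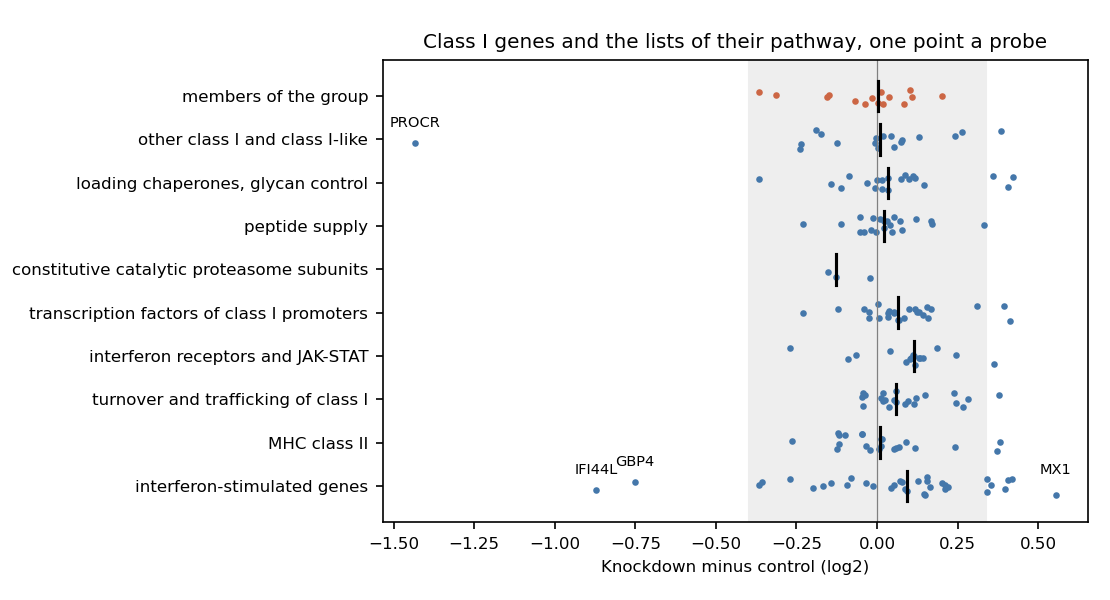
Difference between knockdown and control (log2, x axis) for each retained probe of the 9 class I genes (orange) and of 9 lists (blue), with the median of each as a black bar; the grey band spans the 5th to 95th percentile of all retained probes. All 15 class I probes lie inside the band, and PROCR, IFI44L and GBP4 lie far to its left.

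For comparison, MHC class II genes had 22 retained probes with a median of 0.01 and no call by limma (4 of 22 with an unadjusted p under 0.05, against 12.5%), from 0.38 ± 0.10 for HLA-DQA1, a class II chain, to -0.26 ± 0.10 for CIITA. CIITA is the class II counterpart of NLRC5, and its other probe was at -0.05. Interferon-stimulated genes had 35 retained probes with a median of 0.09 and no call (10 of 35 with an unadjusted p under 0.05, against 12.5% of all retained probes). With the replicate block, 2 of the 35 were called, both lower, against 3.79% of all retained probes. IFI44L was at -0.87 ± 0.19 (adjusted p = 0.0807, and 0.00730 with the block) and GBP4, a guanylate-binding protein induced by interferon, at -0.75 ± 0.16 (adjusted p = 0.0727, and 0.00868 with the block). At the other end, MX1, an antiviral GTPase, was at 0.55 ± 0.15 (adjusted p = 0.146), so the interferon-stimulated genes with the largest differences did not share a direction. IRF1, which carries interferon signals to class I promoters and was named after its values were seen, differed by 0.12 and was not called.

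Finally, the pattern over the 6 arrays was described. Averaged over the 9 genes, each scaled to its own mean and SD, the level was highest on control 1 (0.59 SD) and lowest on knockdown 2 (-0.32 SD). Pearson's r of each gene with this mean ran from -0.37 for TAPBP and -0.31 for HLA-C to 0.69 for HLA-F and 0.77 for NLRC5. The mean includes the gene itself, which raises its r. HLA-B and HLA-E were at 0.62 each, TAP2 at 0.41, TAP1 at 0.21 and B2M at 0.20. Of 13596 other gene symbols, those most like the mean profile were KLHL36 (r = 0.994), ATAD1, ZSWIM4, CSTF2T and SPON2 (r = 0.980), over 6 arrays. All 5 were highest on control 1. These values of r are a description of 6 arrays chosen out of many symbols, and no test was made on them.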

How the data were processed

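Total RNA of 6 REH cultures, which the study calls biological triplicates, was labelled with Cy3 and hybridized to a custom array of 62976 spots. The authors extracted spot intensities with Feature Extraction (version 10.7.1.1 in the headers), and the deposited scanner files give intensity with no normalization between arrays. They also deposited a table of log2 values for 27869 probes after variance stabilization (VSN) and a background filter, which served as an alternative here.

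The VSN model was written anew, as the package was not installed, and fitted to raw median spot intensity with the 0.9 quantile of least squares kept. Its values approach log2 for bright probes and understate the change of dim ones. Outlier spots were left out and spots of one probe averaged. Probes were kept whose normalized value, on 60% or more of a group's arrays, exceeded 1.1 times the 0.95 quantile of 308 negative control spots. Groups were tested over the 27441 retained probes by limma (version 3.58.1, R 4.3.3), two-sided, with no block and Benjamini-Hochberg adjustment over all of them, and probes with an adjusted p under 0.05 were called. The unit of replication is the array, and n = 3 per group limits the precision. Each SE is that of limma, which draws the spread of a probe toward that of all probes tested. The fit was tested on simulated data.

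Deviations of same-numbered arrays from their group means correlated at 0.427, 0.288 and 0.204 (differently numbered ones at -0.332 to 0.187), so the labels' replicate numbers were taken as pairs and a fit with the number as a block was run. Probes were named through RefSeq accessions of a later assembly than the array design build (hg19), which matched 75.4% of catalogue probes. Alternatives were the 75th percentile scaling of processed signal, normexp with quantile normalization, the deposited log2 values, spike-in scaling, other filters, an intensity trend with robust prior, the slide row, the block, and each array left out. Named genes were all members, list genes called with or without the block, the highest and lowest of each list, and the 5 symbols most like the mean profile. Members and lists were chosen with earlier results of these data known.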

Additional observations from a re-analysis of the deposited data

How the results depend on the processing

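None of the 15 class I probes was called under the 16 alternatives run for each, and none of the 9 genes under the 15 run with probes averaged, and the lowest adjusted p of a probe was 0.136, for NLRC5 with the replicate block. Of 240 pairs of a probe and an alternative, 215 kept the direction of the difference and 25 turned it. Turned values were 0.0039 for HLA-B A_33_P3379947 with 75th percentile scaling; with normexp, 0.036 for the same probe and 0.022 for TAPBP A_23_P259580; and, with the slide row, 0.053 for that HLA-B probe, -0.039 for TAP2 A_23_P368067 and 0.0039 for that TAPBP probe. Spike-in scaling turned HLA-B to 0.35 and 0.33, HLA-E to 0.26, B2M to 0.22, TAPBP A_23_P259580 to 0.34 and NLRC5 A_23_P26583 to 0.039, beside the shift of 0.38 in all probes. Leaving out one array gave -0.048 to 0.085 and -0.012 to 0.10 for HLA-F, -0.14 to 0.081 for TAP1, -0.072 to 0.12 and -0.023 to 0.15 for TAP2 and -0.14 to 0.11 for TAPBP A_23_P259580.

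Over all probes, 479 were called (352 lower, 127 higher), against 907 (233 lower, 674 higher) with spike-in scaling, 223 with no filter, 1039 with the replicate block, 227 with the slide row and 192 to 547 with one array left out (283, 192 and 257 without control 1, 2 and 3, and 547, 214 and 205 without knockdown 1, 2 and 3). Among probes of the 9 lists, 1 was called, against 4 with normexp, 2 with spike-in scaling, 2 with the trend and robust prior, 3 with the block, 0 with the slide row, and 1 to 2 with one array left out (2 without knockdown 1). The ETV6 value of -0.70 passed with the trend and robust prior alone (adjusted p = 0.0437); with one array left out it was at -0.80 to -0.57. Apart from IFI44L, GBP4 and the B-cell precursor markers, the block changed no call of a gene named here. The cause of these shifts was not tested.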
